A study of Mus musculus with 10 samples.

Results

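The nuclear genes for subunits of the oxidative phosphorylation complexes were followed through 3 regions of the adult mouse brain and across a perinatal diet. The members are the protein-coding GENCODE vM21 genes with a symbol beginning Nduf (followed by a, b, c, s or v and a digit), Uqcr, Atp5 or Cox with a digit from 4 to 8, together with Sdha, Sdhb, Sdhc and Sdhd. The choice rested on names alone and used no measured value. Of 85 annotated genes, 84 were in the table of 47729 genes: 37 of complex I, 4 of complex II, 8 of complex III, 18 of complex IV and 17 of complex V. Ndufa4 was counted with complex I by its name, although it is known as a subunit of complex IV. Cyc1, the cytochrome c1 gene of complex III, was not matched by these names.

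The RNA came from outbred CF1 mice sampled at postnatal day 56. Both parents received a normal-protein (NP) or low-protein (LP) diet from mating, and the dam stayed on it through pregnancy and lactation. All offspring were weaned on day 21 to the NP diet and kept on it for 5 weeks, so every group, LP included, ate the same food for that time. The 10 libraries were prefrontal cortex NP and LP of males and of females, hippocampus NP and LP of males and of females, and hypothalamus NP and LP of males only. Each group of region, sex and diet had 1 library, which gave 5 LP and NP pairs. The labels do not say whether a library came from 1 animal or a pool, or whether regions came from the same animals. The p-values therefore measure only the spread between these libraries, which may be technical.

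Oxidative phosphorylation is the set of reactions by which mitochondria turn reducing equivalents into ATP. Complex I takes electrons from NADH and complex II from succinate, and both pass them through ubiquinone to complex III. Complex III reduces cytochrome c and complex IV, cytochrome c oxidase, hands the electrons to oxygen. Complexes I, III and IV pump protons, and complex V, the ATP synthase, uses the gradient to make ATP. A few subunits are encoded in mitochondrial DNA and all others, among them those described here, in the nucleus. Neurons meet most of their demand for ATP by this route.

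The libraries held from 7871010 to 16265481 counts, the lowest being the female NP hippocampus library. That library had no counts for genes past Park7 on chromosome 4, nor for chromosomes 5 to 9, X, Y and M, and these genes were treated as missing there. Of the 84 members 57 were measured in all 10 libraries and 27 in 9. Levels are given as CPM, the read count of a gene relative to the size of its library. That size was taken with TMM from genes measured in all 10 libraries and brought to the scale of the complete libraries by 1 constant, so the missing genes do not raise the CPM of the incomplete library. Levels of different genes are compared only per kilobase of transcript (CPM per kb). Summed hypothalamic markers were at 571 and 912 CPM in hypothalamus and at 2.4 to 4.0 CPM elsewhere. Summed hippocampal markers were at 670.2 to 725 CPM in hippocampus and at 48.0 to 58.4 CPM in prefrontal cortex. Of other tissues, pituitary markers summed to 559 CPM in the male NP hippocampus library and to 2.4 to 12.6 CPM in the other hippocampus libraries. The sum of 8 prefrontal cortex markers was 759 to 839.6 CPM in prefrontal cortex and 469 to 475 CPM in the complete hippocampus libraries. Among them Bcl11b went the other way, at 58.7 to 75.3 CPM in prefrontal cortex and 197 to 212 CPM in hippocampus. In hypothalamus the sum was 320 and 348 CPM, although Rorb, Rasgrf2 and Foxp2 were higher there than in prefrontal cortex. The 13 mitochondrially encoded subunits together reached 13.1 to 23.4 CPM, and their counts were not read as levels.

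The most abundant members per kilobase were Atp5b, Cox8a and Cox4i1. Atp5b, the catalytic beta subunit of ATP synthase, averaged 590.1 ± 42.1 CPM per kb (SD, n = 10). Cox8a averaged 485 ± 110.0 CPM per kb (SD, n = 10) and Cox4i1 averaged 468 ± 81.1 CPM per kb (SD, n = 9). Among the 4 genes of complex II, Sdha, the flavoprotein that oxidises succinate, was highest at 140.0 ± 12.1 CPM per kb (SD, n = 10). Sdhb, the iron-sulfur subunit, averaged 116 ± 10.8 CPM per kb (n = 10), and the membrane anchors Sdhd and Sdhc averaged 71.1 ± 5.71 (n = 9) and 47.4 ± 2.91 CPM per kb (n = 10).

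Where a subunit has several isoforms, 1 isoform held most of the length-scaled counts in brain, with copies elsewhere in the genome left aside. Cox4i1 stood at 468 CPM per kb and Cox4i2, the isoform known from lung, at 1.48 CPM per kb. Cox6a1 averaged 389 CPM per kb, and the heart and muscle isoform Cox6a2 averaged 4.53 CPM per kb. Cox6b1 averaged 367 CPM per kb and its testis isoform Cox6b2 averaged 5.58 CPM per kb. In the Cox7a family the levels were 182 CPM per kb for Cox7a2, 128 for Cox7a2l and 3.55 for the muscle isoform Cox7a1. Cox7b averaged 122 CPM per kb and Cox7b2 averaged 1.16 CPM per kb. The 3 lowest members were Cox7b2, the muscle isoform Cox8b at 0.605 CPM per kb, and Cox8c, which had 0 counts in every library. Ndufa4 averaged 424 CPM per kb and Ndufa4l2 averaged 2.28 CPM per kb. The 3 genes for the c subunit of ATP synthase, which encode the same mature protein, were ordered Atp5g3 (334), Atp5g2 (93.7) and Atp5g1 (20.1 CPM per kb). Before length scaling Atp5g1 stood at 46.1 to 59.8 CPM and Atp5g2 at 46.2 to 62.1 CPM. Their gap per kb follows the transcript lengths used, 2.675 and 0.586 kb. Their values, and so the order of the 3 genes, are also uncertain because both have near-identical copies elsewhere in the genome. Counts on these copies came to 213% of Atp5g1 and 282% of Atp5g2.

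Cox8b and Cox8c were too low to test, and 82 members passed the filter on low counts. In Cox8b the counts were 0 to 6 per library. A count of 0 allows a level of up to 3 counts, which is 0.163 to 0.314 CPM at these depths and covers counting error only. Among the 76 members with a mean of at least 10 CPM, the coefficient of variation over libraries had a median of 9.35% and ranged from 4.39% in Atp5c1 to 30.5% in Ndufs5.

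**Figure D1:**
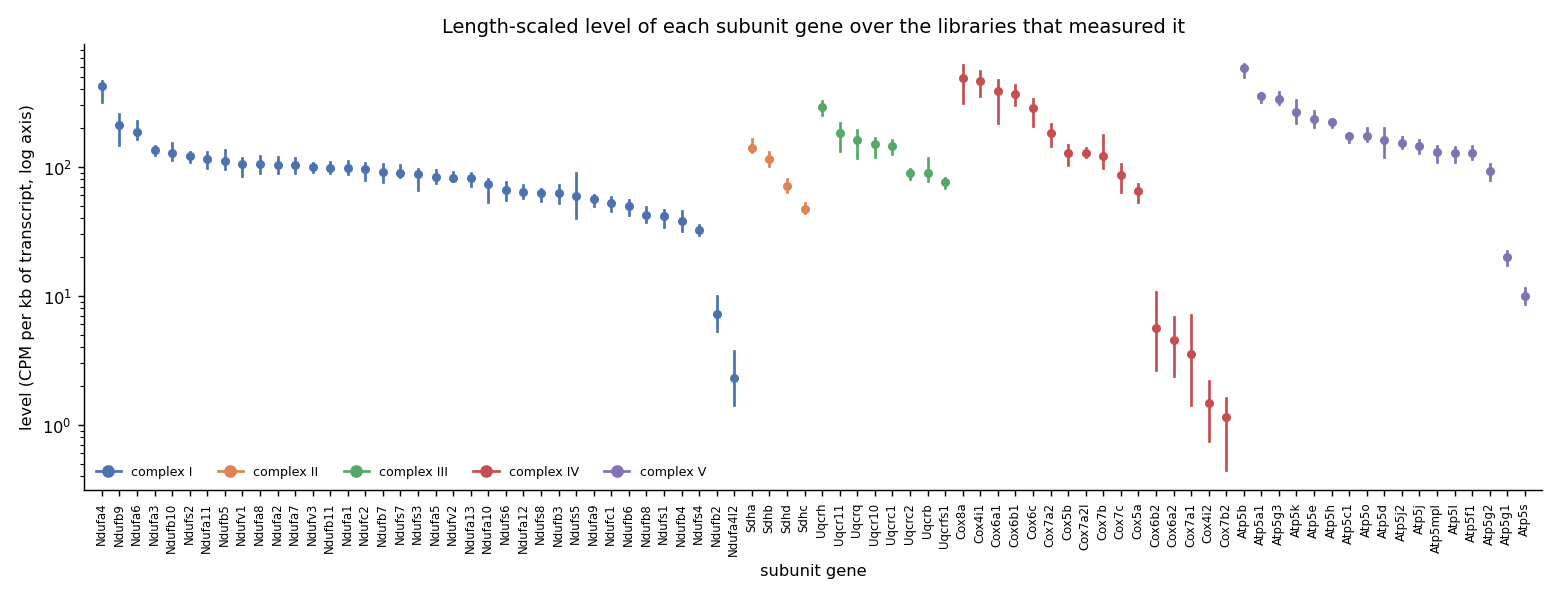
Level of each tested subunit gene in CPM per kb of transcript (log axis), grouped by complex; points are means over the 9 or 10 libraries that measured the gene and lines run from the lowest to the highest library. Most genes lie within a narrow range, and the minor isoforms Cox6b2, Cox6a2, Cox7a1, Cox4i2, Cox7b2 and Ndufa4l2 lie far below their partners.

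The first comparison asked whether subunit genes differed between adult offspring of LP and NP parents. Over the 5 pairs, 1 of 82 members was called lower in LP and 0 higher (edgeR's quasi-likelihood test, Benjamini-Hochberg adjusted p under 0.05). Of all 17550 genes tested, 1.21% were called, 0.849% higher and 0.359% lower. The member was Ndufs5, an accessory subunit of complex I (ENSMUSG00000028648, chr4:123712710-123718202 on the minus strand of GRCm38). The median difference over the members was -0.03 on the log2 scale and that of all genes was -0.00035. At an unadjusted p under 0.05 there were 2 members, the other being Atp5s at -0.22 ± 0.076 (log2 ± SE, edgeR adjusted p = 0.207). Of the 82 members, 56 were measured in all 5 pairs. The others were fitted without the female NP hippocampus library, and so without that pair.

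Ndufs5 stood at 46.2, 43.0, 53.4, 37.8 and 46.4 CPM in the NP libraries of male prefrontal cortex, male hippocampus, female prefrontal cortex, female hippocampus and male hypothalamus. In the LP libraries of the same order it stood at 26.7, 23.9, 30.1, 26.3 and 24.2 CPM. Every LP library lay below every NP library, in all regions and both sexes. The difference was -0.80 ± 0.064 on the log2 scale over the 5 pairs (edgeR, adjusted p = 6.39e-05). Within prefrontal cortex it was -0.81 ± 0.095 (adjusted p = 0.000926) and within hippocampus -0.69 ± 0.098 (adjusted p = 0.00366). Ndufs5 was the 1 member called of 56 in each of these tests, in which 1.33% of all genes (0.796% higher, 0.534% lower) and 0.271% (0.192% higher, 0.0787% lower) were called. With DESeq2 neither call was made (adjusted p = 0.0714 and 0.595), and without the male pair the hippocampus call was lost (edgeR adjusted p = 0.116). In hypothalamus, with 1 pair and no test, the log2 ratio was -0.94.

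The counts of Ndufs5 cannot be read apart from those of a near-identical copy. BC002163 is a processed pseudogene, a copy of a spliced transcript inserted in the genome, at chr16:42955631-42955949 on the plus strand. In the GENCODE vM21 transcripts, 319 bases of Ndufs5 aligned to it with 2 mismatches, which is 99.4% identity. The aligned stretch covers all but the last bases of the 321-base coding sequence and crosses 1 exon junction. The mismatches were T81C and A105G, with the Ndufs5 base first, the coding position counted from 1 at the start codon, and the base of the copy last. The coding strands are printed from position 51 to 135, with the bases that differ in capitals, because within this stretch the genes differ at these letters alone.
Ndufs5: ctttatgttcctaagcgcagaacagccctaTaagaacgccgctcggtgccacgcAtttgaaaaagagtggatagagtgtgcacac
BC002163: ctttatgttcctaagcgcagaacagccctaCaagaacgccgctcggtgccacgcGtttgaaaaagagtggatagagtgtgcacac

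BC002163 moved opposite to Ndufs5. In the NP libraries, in the order given for Ndufs5, it stood at 52.2, 43.6, 58.9, 50.1 and 57.5 CPM. In the LP libraries it stood at 81.2, 71.8, 84.9, 73.1 and 78.7 CPM. Every LP library lay above every NP library, the reverse of Ndufs5. The difference was 0.57 ± 0.050 on the log2 scale (edgeR, adjusted p = 9.9e-05). The copy held 50.3% to 57.0% of the summed counts of both genes in NP libraries and 73.6% to 76.5% in LP libraries. The counts behind these shares ranged from 1000 to 1908 per library.

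When the counts of both genes were added, LP and NP no longer separated. The sum was 98.4, 86.7, 112, 87.9 and 104 CPM in the NP libraries and 108, 95.7, 115, 99.3 and 103 CPM in the LP libraries. The log2 ratios of the 5 pairs were 0.13, 0.14, 0.03, 0.18 and -0.02. The difference of the sum was 0.09 ± 0.043 (edgeR, unadjusted p = 0.0554, adjusted p = 0.378). How the authors treated reads that fit both genes is not given in the sources used here, and the source of the shift in share was not tested.

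**Figure D2:**
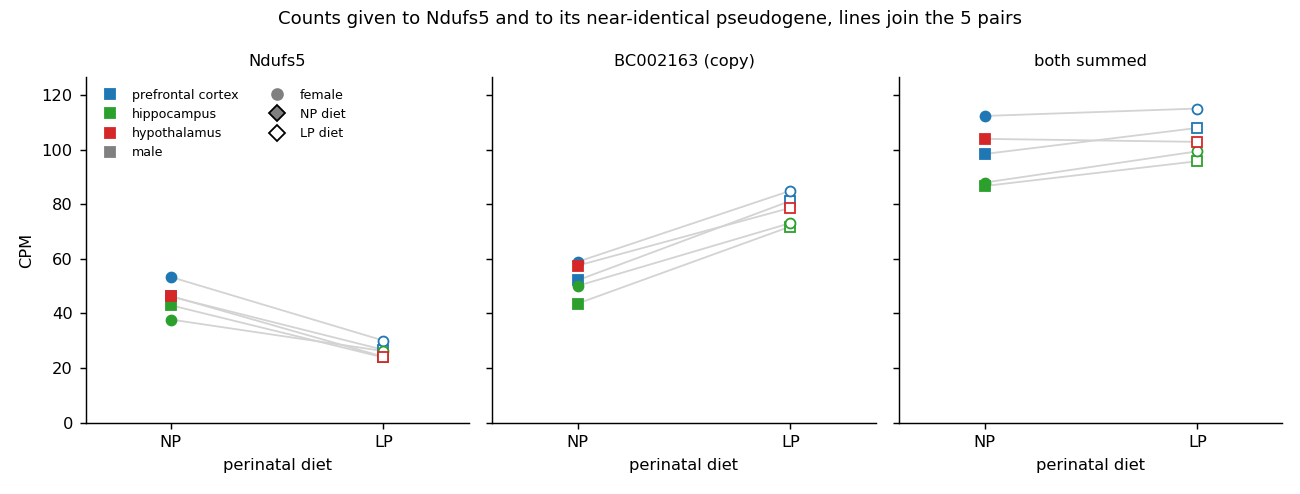
Level in CPM of Ndufs5, of its pseudogene BC002163 and of both summed, by perinatal diet; each line joins the NP and LP library of 1 region and sex. All 5 lines fall for Ndufs5 and rise for BC002163, while the sums of NP and LP libraries overlap.

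Near-identical copies are not particular to Ndufs5. In all, 20 members had 34 annotated copies with at least 95% identity over at least 200 bases. In 12 members the copies summed to at least 10% of the counts of the member itself. Counts on copies came to 282% of the member in Atp5g2, 213% in Atp5g1, 188% in Ndufs5, 148% in Atp5l, 114% in Ndufb4 and 90.1% in Ndufa12. Of the 19 members with copies other than Ndufs5, 12 had a copy share of at least 5%, and in these the share differed between the LP and NP library of a pair by at most 4.67 percentage points. In 0 of the 19 did the shares of LP and NP libraries separate, against differences of 16.6 to 24.7 points in Ndufs5.

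The other members differed little with diet in the tests over all pairs. Among the 75 others with at least 10 CPM, the log2 difference ran from -0.22 in Atp5s to 0.06 in Atp5g1, with a median SE of 0.0489. Atp5s, an ATP synthase associated factor, stood at 17.6, 16.3, 16.6, 15.7 and 16.0 CPM in the NP libraries, in the order given for Ndufs5. In the LP libraries it stood at 14.1, 14.1, 13.4, 15.6 and 13.4 CPM. Every LP library of Atp5s was below every NP library, and the female hippocampus pair was the closest. Over the 56 members measured in all 5 pairs, 3 were lower in LP in every pair (5.36%, against 5.83% of all genes) and 0 were higher in every pair (against 6.71%). The 3 were Ndufs5, Atp5s and Cox4i2, the last with 9 to 19 counts per library.

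No member was called in the test of whether the diet difference differed between hippocampus and prefrontal cortex, where 0% of all genes were called. Of 56 members 1 had an unadjusted p under 0.05, and DESeq2 called 0. It was Ndufs1, a core iron-sulfur subunit of complex I, at 0.22 ± 0.092 (log2 ± SE, edgeR adjusted p = 0.931). In the test of whether it differed between females and males, 0 of 56 members were called by edgeR or DESeq2, against 0.209% of all genes by edgeR (0.123% higher, 0.0854% lower). Ndufa4l2 at 1.19 ± 0.43 and Atp5g1 at -0.35 ± 0.099 were the 2 with an unadjusted p under 0.05 (edgeR adjusted p = 0.576 and 0.387).

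The hypothalamus pair stood apart from the other 4. It has 1 library for each diet, so its differences have no replicate check. In it 75 of 82 members were lower in LP (91.5%), against 50.7% of all genes, and the median log2 ratio was -0.14 against -0.0039 for all genes. All 17 members of complex V, all 8 of complex III and all 4 of complex II were lower, as were 34 of 37 of complex I and 12 of 16 of complex IV. In the other pairs the members below NP in LP were 32 of 82 in male prefrontal cortex (50.5% of all genes), 33 of 82 in male hippocampus (49.8%), 49 of 82 in female prefrontal cortex (49.6%) and 28 of 56 in female hippocampus (48.6%). With library totals in place of TMM the count in hypothalamus was again 75 of 82. The TMM factors of its NP and LP libraries were nearly equal (1.17 and 1.16), so this change could hardly move the count.

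Leaving aside Ndufs5 and genes with few counts, the largest ratios in the hypothalamus pair were in Uqcr10, Ndufb6, Ndufa12 and Ndufs7. Their log2 ratios of LP to NP were -0.39, -0.36, -0.34 and -0.32, and they were picked out after their values were seen. The members that were higher in LP included Ndufs1 at 0.02 and Ndufb2 at 0.06, and 5 minor isoforms, Cox6b2, Ndufa4l2, Cox6a2, Cox7a1 and Cox7b2, at 0.04 to 0.40. The summed level of the 57 members measured everywhere was 7290.0 CPM in the NP and 6713 CPM in the LP library of hypothalamus, a log2 ratio of -0.12. In the other pairs this ratio ran from -0.02 to 0.03.

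Other gene groups also differed between these hypothalamus libraries. Of the 82 tested cytosolic ribosomal protein genes 77 were lower in LP, with a median log2 ratio of -0.18. The 6 smooth muscle and pericyte markers summed to 216 CPM in NP and 458 CPM in LP. The 5 oligodendrocyte markers measured in all libraries summed to 2929 and 2193 CPM. The 11 hypothalamic markers summed to 1066 and 670.2 CPM, although Agrp, Pomc, Sim1 and Nkx2-1 among them were higher in LP. The 6 inhibitory neuron markers summed to 1019 and 817 CPM, although Pvalb and Vip were higher in LP. The 6 pituitary markers, Pomc included, summed to 216 and 150 CPM. The 5 blood markers summed to 1849 CPM in NP and 1258 CPM in LP, and they were lower in LP in every pair with complete libraries. The bracketed code in the title of the LP hypothalamus library also differs in its second field from those of the other libraries, and the labels do not say what it marks. The part of these differences in the members' ratios was not tested. In bulk tissue, fewer cells of a type and less RNA per cell cannot be told apart.

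**Figure D3:**
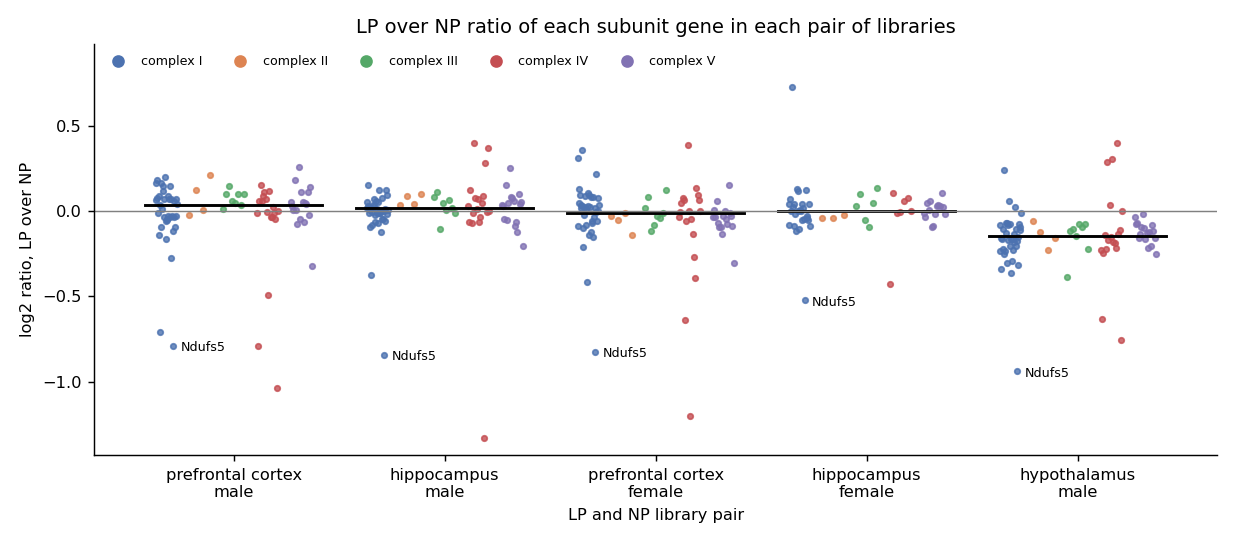
Log2 ratio of LP over NP for each tested subunit gene in each of the 5 pairs of libraries, coloured by complex; the black line is the median of each pair and Ndufs5 is named. The medians of 4 pairs lie near 0, that of hypothalamus lies at -0.14, and Ndufs5 is low in each pair.

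Far more members were called between regions than between diets, as was true of all genes (53.4% to 63.6% against 1.21%). The place of hypothalamus in the order of the regions depends on the scaling of its libraries. With TMM, 54 of 82 members had their highest regional mean in prefrontal cortex, 21 in hypothalamus and 7 in hippocampus. The lowest mean was in hippocampus for 38, in hypothalamus for 36 and in prefrontal cortex for 8. By library totals alone, the highest mean was in hypothalamus for 60, in prefrontal cortex for 21 and in hippocampus for 1, and the lowest in hippocampus for 55, in prefrontal cortex for 14 and in hypothalamus for 13. In complex IV prefrontal cortex was highest for 13 of 16 members with TMM and for 11 of 16 with library totals. In complex V it was highest for 14 of 17 with TMM and for 3 of 17 with library totals. All genes are not ordered here, so these counts have no background beside them.

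In hippocampus against prefrontal cortex, 41 of 82 members were lower and 4 higher (edgeR, adjusted p under 0.05, with sex and diet as terms). Of all genes 53.4% were called, 26.1% lower and 27.3% higher. The median difference was -0.15 on the log2 scale over the members and -0.0045 over all genes. The libraries did not overlap in 40 members that were lower and 5 that were higher, against 25.1% and 25.4% of all genes. The count of calls fell to 24 without the male prefrontal cortex pair, 19 without the male hippocampus pair, 25 without the female prefrontal cortex pair and 27 without the female hippocampus pair.

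By complex, the lower calls in hippocampus were 15 of 37 in complex I, 2 of 4 in II, 4 of 8 in III, 11 of 16 in IV and 9 of 17 in V. In complex I the largest were Ndufc2 at -0.37 ± 0.059 (log2 ± SE), Ndufs6 at -0.35 ± 0.063 and Ndufb7 at -0.26 ± 0.078. In complex II they were Sdhb at -0.27 ± 0.049 and Sdhc at -0.14 ± 0.052. Sdhb stood at 137, 149, 148 and 143 CPM in prefrontal cortex and at 116, 123, 122 and 119 CPM in hippocampus, with no overlap. In complex III the largest were Uqcrh, the hinge protein that binds cytochrome c1, at -0.30 ± 0.042, Uqcr10 at -0.26 ± 0.072 and Uqcrq at -0.22 ± 0.060. In complex V they were Atp5k at -0.33 ± 0.067, Atp5g2 at -0.30 ± 0.055 and Atp5d, the delta subunit of the central stalk, at -0.29 ± 0.053. The adjusted p of these 11 members ran from 2.76e-05 for Uqcrh to 0.0343 for Sdhc.

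The 4 members higher in hippocampus were Ndufs1, Ndufa5, Atp5f1 and Cox6b2. Ndufs1 stood at 108, 89.5, 108 and 97.3 CPM in prefrontal cortex and at 121, 117, 116 and 119 CPM in hippocampus, with no overlap (0.23 ± 0.055, edgeR adjusted p = 0.00313). Ndufa5, an accessory subunit of the matrix arm, was higher by 0.18 ± 0.064 (edgeR adjusted p = 0.0311). Atp5f1, the b subunit of the peripheral stalk, was higher by 0.21 ± 0.041 (edgeR adjusted p = 0.000513). The testis isoform Cox6b2 was higher by 0.95 ± 0.25 (edgeR adjusted p = 0.00558), on 12 to 16 counts per library in prefrontal cortex and 21 to 35 in hippocampus.

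In hypothalamus against prefrontal cortex, 31 of 82 members were lower and 8 higher, where 63.6% of all genes were called, 30.5% lower and 33.2% higher. The split depends on scaling, since the TMM factors of the hypothalamus libraries were 1.16 and 1.17 against 0.942 to 0.976 elsewhere. With library totals alone 11 members were lower and 41 higher, and the median of all genes moved from 0.02 to 0.28. A change of scaling moves all genes of a comparison by nearly the same amount. The order of the complexes, which stayed, is therefore no separate check. Relative to all genes under library totals, the median was -0.41 for complex IV, -0.19 for III, -0.14 for V, -0.09 for II and -0.01 for I. The TMM medians were -0.37 for complex IV, -0.16 for III, -0.13 for V, -0.07 for II and 0.0092 for I. Without the male prefrontal cortex pair 22 members were called.

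Summed neuron markers were at 2375 and 2443 CPM in hypothalamus and at 5424 to 5752 CPM in the other regions. The 2 excitatory neuron markers measured in all libraries, Camk2a and Neurod2, summed to 436 and 452 against 5501 to 5797 CPM. Of the excitatory markers missing from the incomplete library, Slc17a7 and Neurod6 were also lower in hypothalamus, but Slc17a6 was higher. Slc17a6 stood at 235 and 289 CPM in hypothalamus and at 7.82 to 18.6 CPM in the other libraries that measured it. Oligodendrocyte markers (5 genes) summed to 1086 to 1741 CPM in prefrontal cortex, 3355 to 4165 CPM in hippocampus and 2193 to 2929 CPM in hypothalamus. Astrocyte markers (5 genes) summed to 2131 to 2539 CPM over all libraries, but the single genes moved in different directions. Gfap was at 109 to 186 CPM in prefrontal cortex and at 436.5 to 575 CPM in the other regions, and Aqp4 was also higher there. Slc1a3 was lower in the other regions. Aldoc was at 956 to 1076 CPM in prefrontal cortex, 732 to 793 CPM in hippocampus, and 1052 and 877 CPM in hypothalamus. The part of cell composition in the regional differences of the members was not tested.

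Complex IV had the lowest median of the complexes in both comparisons with prefrontal cortex. In hypothalamus against prefrontal cortex 9 of its 16 tested members were lower and 2 higher, and with library totals alone 6 were lower and 3 higher. Cox6a1 (chr5:115345642-115348981, minus strand) stood at 259, 269.7, 259 and 270.4 CPM in male NP, male LP, female NP and female LP prefrontal cortex. It stood at 218, 217 and 233 CPM in the 3 hippocampus libraries that measured it and at 146 and 125 CPM in NP and LP hypothalamus. The libraries of the 3 regions did not overlap. The hypothalamus level was lower than prefrontal cortex by -0.95 ± 0.069 on the log2 scale (edgeR, adjusted p = 2.76e-08) and lower than hippocampus by -0.71 ± 0.070 (adjusted p = 6.75e-07). Hippocampus and prefrontal cortex differed by -0.23 ± 0.056 (adjusted p = 0.00289).

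Cox8a (chr19:7215153-7217616, minus strand) showed the same order. It stood at 338, 327, 309.8 and 330.4 CPM in prefrontal cortex, 233, 233, 264 and 278 CPM in hippocampus, and 185 and 171 CPM in hypothalamus. The 3 regions were again separate. Hypothalamus differed from prefrontal cortex by -0.84 ± 0.075 (edgeR, adjusted p = 2.51e-07) and from hippocampus by -0.46 ± 0.075 (adjusted p = 0.000112), and hippocampus differed from prefrontal cortex by -0.38 ± 0.056 (adjusted p = 5.74e-05).

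Cox6c (chr15:35925886-35938246, minus strand) was the third with separate regions, at 206, 205, 196 and 196 CPM in prefrontal cortex, 163, 171, 163 and 162 CPM in hippocampus and 140.1 and 126 CPM in hypothalamus. Its differences from prefrontal cortex were -0.62 ± 0.058 in hypothalamus (edgeR, adjusted p = 4.15e-07) and -0.28 ± 0.044 in hippocampus (adjusted p = 8.64e-05). Between hypothalamus and hippocampus it was -0.33 ± 0.058 (adjusted p = 0.00018). With library totals alone the hypothalamus differences from prefrontal cortex were -0.70 for Cox6a1, -0.57 for Cox8a and -0.35 for Cox6c, all still called. From hippocampus they were -0.47 for Cox6a1, -0.20 for Cox8a and -0.07 for Cox6c, and that of Cox6c was no longer called (edgeR adjusted p = 0.300).

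Cox4i1, a large nuclear subunit of the enzyme with a regulatory site for ATP, followed a second pattern (chr8:120668222-120674207, plus strand). It stood at 419, 416, 419 and 409 CPM in prefrontal cortex, 311, 317 and 303 CPM in hippocampus and 315 and 268 CPM in hypothalamus. All prefrontal cortex libraries were above all others, and those of hippocampus and hypothalamus overlapped. The differences from prefrontal cortex were -0.41 ± 0.051 in hippocampus (edgeR, adjusted p = 1.08e-05) and -0.52 ± 0.061 in hypothalamus (adjusted p = 3.83e-06). Hypothalamus and hippocampus differed by -0.12 ± 0.061 (adjusted p = 0.118), and by 0.13 with library totals alone. Cox6b1, Cox7a2 and Cox7c followed the pattern of Cox4i1, with differences from prefrontal cortex of -0.29, -0.32 and -0.32 in hippocampus and -0.34, -0.40 and -0.55 in hypothalamus, all called. With library totals alone the hypothalamus values were -0.10, -0.16 and -0.28, and that of Cox6b1 was no longer called. Cox7c was also called lower in hypothalamus than in hippocampus, by -0.23 ± 0.096 (edgeR adjusted p = 0.0482), and turned to 0.03 with library totals alone.

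The minor isoforms of complex IV moved otherwise. Cox6b2 was highest in hypothalamus, with 4.52 and 4.64 CPM against 1.92 to 2.82 CPM in hippocampus and 1.16 to 1.57 CPM in prefrontal cortex. Its 3 regions were separate, and the difference of hypothalamus was 1.74 ± 0.24 from prefrontal cortex (edgeR, adjusted p = 2.05e-05) and 0.79 ± 0.21 from hippocampus (adjusted p = 0.00548). Cox7a1 stood at 2.51 and 3.13 CPM in hypothalamus and at 0.63 to 1.65 CPM in the other regions. It was called higher in hypothalamus by 1.21 ± 0.33 against prefrontal cortex (edgeR, adjusted p = 0.00513) and by 1.31 ± 0.34 against hippocampus (adjusted p = 0.00371). Cox6a2 was lowest in hippocampus, by -0.91 ± 0.24 from prefrontal cortex (edgeR, adjusted p = 0.00575), and hypothalamus was higher than hippocampus by 1.01 ± 0.26 (adjusted p = 0.00415). These 3 genes had 6 to 83 counts per library.

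**Figure D4:**
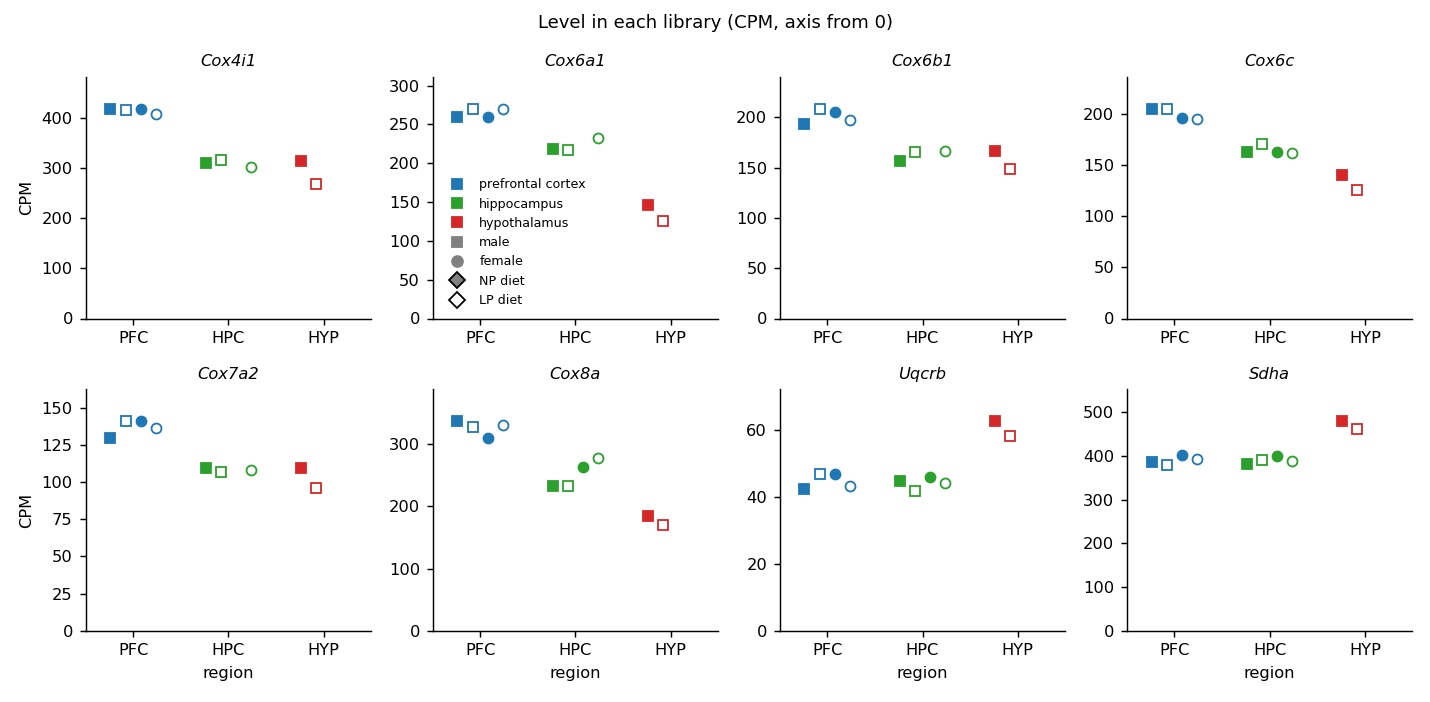
Level in CPM of 8 subunit genes in every library, by region (PFC, prefrontal cortex; HPC, hippocampus; HYP, hypothalamus), with squares for males, circles for females, filled for NP and open for LP. Cox6a1, Cox6c and Cox8a step down from prefrontal cortex to hippocampus to hypothalamus on this TMM scale (with library totals alone the last step of Cox6c is -0.07), Cox4i1, Cox6b1 and Cox7a2 are highest in prefrontal cortex, and Sdha and Uqcrb are high in hypothalamus.

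With TMM, Sdha was the 1 called member of complex II between hypothalamus and prefrontal cortex (chr13:74322254-74350280, minus strand). With library totals alone 3 of 4 were called higher, Sdha at 0.56, Sdhc at 0.24 and Sdhb at 0.15. The values of Sdha that follow are on the TMM scale. It stood at 480.0 and 461 CPM in hypothalamus, 379.7 to 403 CPM in prefrontal cortex and 381 to 399 CPM in hippocampus, and hypothalamus was separate from both. The difference was 0.29 ± 0.046 from prefrontal cortex (edgeR, adjusted p = 7.74e-05) and 0.29 ± 0.046 from hippocampus (adjusted p = 7.6e-05). Hippocampus and prefrontal cortex differed by -0.0031 ± 0.036 (adjusted p = 0.949).

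Uqcrb, a ubiquinone-binding subunit of complex III, was also highest in hypothalamus, at 62.7 and 58.2 CPM against 41.8 to 47.0 CPM elsewhere. It was higher by 0.45 ± 0.072 than in prefrontal cortex (edgeR, adjusted p = 9.45e-05) and by 0.47 ± 0.073 than in hippocampus (adjusted p = 6.59e-05). Other small subunits of the same complex were lower than in prefrontal cortex, Uqcr11 by -0.52 ± 0.066, Uqcrq by -0.47 ± 0.078 and Uqcr10 by -0.26 ± 0.092, though with library totals alone these were -0.25, -0.20 and, no longer called and turned in sign, 0.02.

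Complex I had 9 of 37 members lower and 4 higher in hypothalamus than in prefrontal cortex, but 2 lower and 24 higher with library totals alone. Ndufb9, Ndufa10 and Ndufs3 were lower by -0.59 ± 0.067, -0.43 ± 0.064 and -0.41 ± 0.068. They were at -0.32, -0.15 and -0.13 with library totals alone, and Ndufs3 was no longer called (edgeR adjusted p = 0.0813). Ndufb9 stood at 122 and 104 CPM in hypothalamus, at 165 to 180.3 CPM in prefrontal cortex and at 145 to 148 CPM in hippocampus, so the 3 regions were separate. Ndufb2, Ndufb10 and Ndufa6 were higher, by 0.65 ± 0.12, 0.26 ± 0.067 and 0.23 ± 0.076. Ndufb2 stood at 23.04 and 23.97 CPM in hypothalamus, 12.8 to 17.1 CPM in prefrontal cortex and 16.8 to 17.6 CPM in hippocampus. In complex V 9 of 17 members were lower and 0 higher, and edgeR gave 9 an unadjusted p under 0.05. This split reversed with library totals alone, where 1 was lower and 9 higher. The largest were Atp5d at -0.51 ± 0.070, Atp5mpl at -0.32 ± 0.067 and Atp5l at -0.29 ± 0.071. Atp5d was at -0.24 with library totals alone and still called, while Atp5mpl at -0.05 and Atp5l at -0.04 were not (edgeR adjusted p = 0.521 and 0.602).

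**Figure D5:**
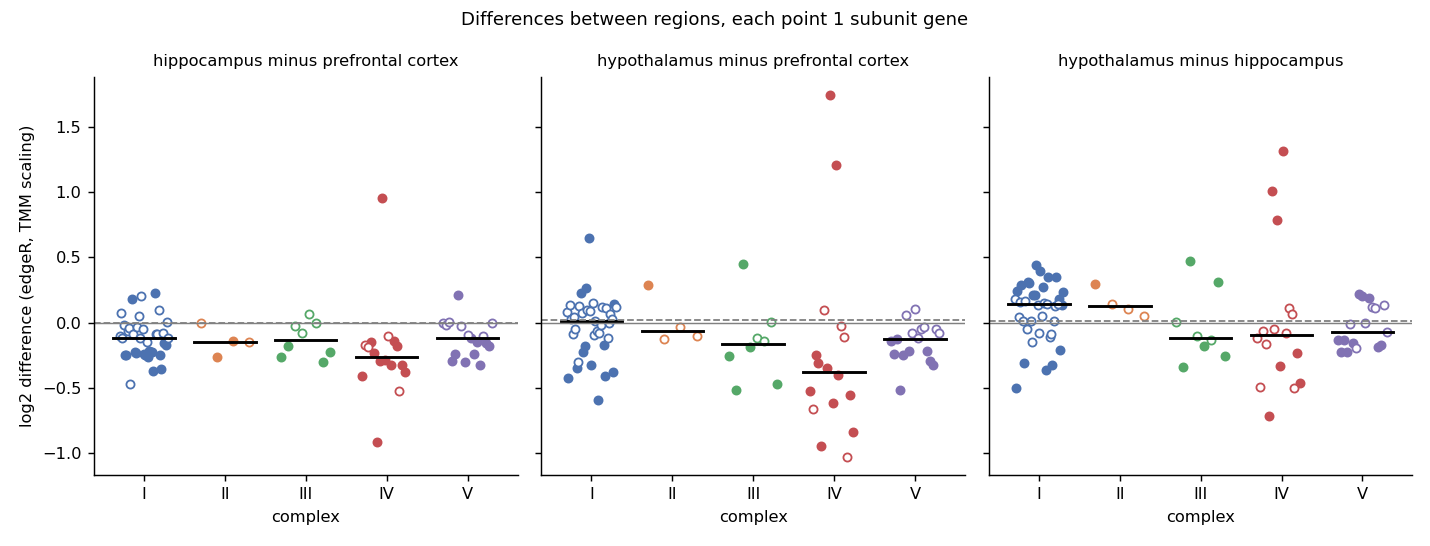
Log2 difference between regions (edgeR with TMM scaling) for each tested subunit gene by complex; filled points passed an adjusted p of 0.05, black bars are medians of a complex and the dashed line is the median of all genes. Complex IV has the lowest median in both comparisons with prefrontal cortex, and Cox6b2 and Cox7a1 are the high points in hypothalamus.

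Between hypothalamus and hippocampus, 23 of 82 members were higher and 19 lower, where 60.3% of all genes were called, 30.4% higher and 29.9% lower. With library totals alone 54 were higher and 3 lower, and the median of all genes was 0.27 in place of 0.01. Complex I leaned one way under TMM, with 14 of 37 members higher and 5 lower. Its median was 0.14, and 0.14 above all genes under library totals, a distance that scaling could hardly change. The largest were Ndufb2 at 0.44 ± 0.12, Ndufb5 at 0.39 ± 0.065, Ndufs6 at 0.35 ± 0.078 and, lower, Ndufa10 at -0.50 ± 0.064, Ndufb9 at -0.36 ± 0.067 and Ndufs3 at -0.32 ± 0.068. Under library totals Ndufa10 was at -0.23, and Ndufb9 at -0.10 and Ndufs3 at -0.06 were no longer called (edgeR adjusted p = 0.198 and 0.456). In complex III Uqcrh was higher by 0.31 ± 0.053, and Uqcr11 was lower by -0.34 ± 0.066, which became -0.07 and was no longer called with library totals alone (edgeR adjusted p = 0.332). Uqcrq at -0.25 ± 0.078 and Uqcrc2 at -0.18 ± 0.058 turned to 0.01 and 0.06 with library totals alone. Complex V had 3 higher, Atp5g2 at 0.22 ± 0.070, Atp5g3 at 0.20 ± 0.061 and Atp5j at 0.19 ± 0.061, and 7 lower. Of the lower ones, Atp5b at -0.22 ± 0.045, Atp5d at -0.22 ± 0.070 and Atp5l at -0.19 ± 0.072 turned to 0.04, 0.04 and 0.05 with library totals alone. Without the male hippocampus pair 14 members were called.

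One member was called between the sexes, where 0.408% of all genes were called, 0.191% higher in females and 0.216% lower. Cox7b lies on the X chromosome (chrX:106015700-106022450, plus strand) and was tested in 7 libraries of prefrontal cortex and hippocampus. It stood at 177 and 147 CPM in NP and LP female prefrontal cortex and at 134 CPM in LP female hippocampus. In males it stood at 115 and 112 CPM in prefrontal cortex and at 97.6 and 104 CPM in hippocampus. All female libraries were above all male ones, and the difference was 0.45 ± 0.056 on the log2 scale (edgeR, adjusted p = 0.000507). Male hypothalamus stood at 114 and 97.9 CPM.

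Other genes of mitochondrial energy metabolism were counted from lists by pathway. In hypothalamus against prefrontal cortex the background was 30.5% of all genes lower and 33.2% higher with TMM, and 19.4% lower and 48.8% higher with library totals alone. Of 20 glycolysis and lactate genes 15 were lower and 0 higher (edgeR, 15 at an unadjusted p under 0.05), with a median of -0.42, and with library totals alone 11 were lower and 2 higher. The largest by test was the phosphofructokinase Pfkp at -1.001 ± 0.055 (log2 ± SE, edgeR adjusted p = 1.36e-09), and the hexokinase Hk1 was at -0.70 ± 0.055. Of 22 citrate cycle and pyruvate dehydrogenase genes 14 were lower and 4 higher, or 8 each way with library totals alone, with citrate synthase (Cs) at -0.56 ± 0.050 and the succinyl-CoA ligase subunit Sucla2 at 0.72 ± 0.062. Of 21 electron carrier and transport genes 8 were lower and 5 higher, or 3 lower and 11 higher with library totals alone, among them Ucp2, an uncoupling protein of the inner membrane, at 1.91 ± 0.089 (adjusted p = 1.89e-10). The voltage-dependent anion channel Vdac1 was at -0.59 ± 0.053.

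Of 46 assembly factors 13 were lower and 7 higher in hypothalamus than in prefrontal cortex (both under the shares of all genes), and 4 were lower and 16 higher with library totals alone. Lrpprc, which stabilises mitochondrial mRNA, was at 0.77 ± 0.065 and Cox10, needed to make the haem of complex IV, at -0.89 ± 0.10. Of 21 regulators of mitochondrial biogenesis 11 were lower and 4 higher, or 4 lower and 7 higher with library totals alone. The DNA polymerase Polg was at -0.92 ± 0.069 and the nuclear receptor Esrra at -0.70 ± 0.079. Gabpa, the DNA-binding part of the ETS factor also called NRF-2, was at 0.61 ± 0.095 in hypothalamus and 0.72 ± 0.078 in hippocampus against prefrontal cortex.

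In hippocampus against prefrontal cortex, where 26.1% of all genes were lower and 27.3% higher, the cytosolic ribosome had 56 of 82 genes lower and 0 higher (62 at an unadjusted p under 0.05), with a median of -0.22. The mitochondrial ribosome had 17 of 77 lower, near the share of all genes, and 4 higher, glycolysis 12 of 20 lower and 2 higher, and the citrate cycle 4 of 22 lower and 8 higher. Dlat, a core enzyme of pyruvate dehydrogenase, was at 0.51 ± 0.050 and Ldha, lactate dehydrogenase A, at -0.53 ± 0.048. With diet, over the 5 pairs, edgeR called 0 genes of the lists of mitochondrial ribosome (5 at an unadjusted p under 0.05), assembly factors (3), carriers (1), citrate cycle (2), glycolysis (0) and regulators (2). In the cytosolic ribosome 2 of 82 were lower, Rpl38 at -0.29 ± 0.061 and Rpl21 at -0.25 ± 0.053. In this diet test 0.849% of all genes were called higher and 0.359% lower.

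The 5 genes outside the list whose log2 CPM went most closely with the summed level of the members over the 10 libraries were Cyc1, Cipc, Hcn2, Tbc1d22b and 2900011O08Rik. They were drawn from 7037 candidates with at least 10 CPM, and their Pearson correlations were 0.973, 0.972, 0.970, 0.969 and 0.965. The libraries share regions, so these are descriptions. Cyc1 is itself a subunit of complex III.

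Promoters were read from RefSeq on GRCm38.p6, 250 bases before to 50 after each annotated start, for the 68 members with an entry. The motif of NRF1 (GCGCA, any base N, then GCGC), a transcription factor known for respiratory genes, was present on either strand in 17 of 68 members, against 5.19% of 27025 genes. The ETS letters CCGGAAG, as bound by Gabpa, were in 16 of 68, against 9.93%, and AAGATGGCG of YY1 in 7 of 68, against 1.64%. The NRF1 letters were in 7 of 32 members of complex I, 2 of 3 of II, 1 of 5 of III, 1 of 13 of IV and 6 of 15 of V. A match is a description of the sequence and shows no binding.

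Upstream stretches are printed for Ndufs5, Cox6a1 and Sdha. In that order, they had the diet call, the largest called complex IV fall in hypothalamus and the only complex II rise called with TMM. Each is on the minus strand, printed along the direction of transcription, with the NRF1 letters in capitals. Ndufs5 holds the motif in chr4:123718250-123718309, Cox6a1 in chr5:115349041-115349145 and Sdha in chr13:74350281-74350363.
Ndufs5: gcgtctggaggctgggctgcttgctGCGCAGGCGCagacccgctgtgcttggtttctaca
Cox6a1: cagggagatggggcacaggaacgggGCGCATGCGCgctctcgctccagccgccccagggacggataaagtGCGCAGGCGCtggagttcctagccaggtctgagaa
Sdha: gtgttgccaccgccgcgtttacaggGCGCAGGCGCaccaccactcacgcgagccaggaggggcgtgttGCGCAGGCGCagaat
Ndufs5 holds 1 match, and Cox6a1 and Sdha hold 2 each. Cox6a1 was lowest and Sdha highest in hypothalamus.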

How the data were processed

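Gene expression was measured by RNA sequencing (TruSeq libraries from 1 µg of total RNA) in 10 libraries. Per the submitters' processing notes, the tools were CASAVA, FastQC 0.10.1 and the aligner STAR 2.5.0a, on mm10. What the authors deposited were raw read counts for each Ensembl gene, left unnormalized. How reads were counted (tool, strand, multiple matches, gene models) is not given in the sources used here. Counts of genes with near-identical or overlapping copies are therefore uncertain. All 10 sample columns matched a label, and 0 were left out.

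Names, coordinates and transcript lengths came from GENCODE vM21 (47310 of 47729 genes matched), and promoters from RefSeq. In the female NP hippocampus library 4480 of 4481 abundant genes after a break on chromosome 4 had 0 counts, whereas before the break this held for 4 of 8581. For the 19598 genes behind the break or without a position, fits left that library out and needed 2 or more residual degrees of freedom (df), so these genes have no diet tests by region or sex. In these tests 56 members were fitted.

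Genes were filtered with filterByExpr of edgeR 4.0.16 (minimum count 10, R 4.3.3), scaled by TMM and fitted with glmQLFit, followed by the quasi-likelihood test of edgeR (glmQLFTest). P-values were adjusted over all genes by Benjamini-Hochberg at 0.05. Diet was tested with a stratum for each region and sex (4 df) and by region (2 df). Regions were tested with sex and diet as terms (5 df), and sex with a stratum for each region and diet (3 df). These df hold for genes measured in all 10 libraries, and genes behind the break had fewer. Single pairs are log2 ratios with a prior count of 2 and have no test. Copies were found with blastn 2.17.0. The scripts were tested on simulated data. Alternatives were DESeq2 1.42.0, other scalings, filters and designs, and each pair left out.

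The members, gene lists and tests were chosen with earlier results of these data known. Named members were those called for diet or sex, up to 3 per complex and direction in each region test, the isoform families, the Sdh genes, the extremes of level, the untested members, and Ndufs5 with its copy. In the other lists, names came from the 3 smallest p-values in each direction, and 1 such gene is not reported here.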

Additional observations from a re-analysis of the deposited data

Results flagged for a closer look

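The summed levels of complexes I, III and IV differed between LP and NP in male hypothalamus more than in the other 4 pairs, each lying far from the rest of its group of 5 pairs by Dixon's criterion. The log2 ratio of LP to NP was -0.1601 for complex I, where the other pairs ran from -0.02 to 0.0080. It was -0.1445 for complex III, where the others ran from 0.02 to 0.07, and -0.1472 for complex IV, where the others ran from -0.0093 to 0.04. Of 22 groups of pairs or libraries examined, 3 met the criterion. The groups share libraries, and the sum over all members contains the sums of the complexes. All 3 flags concern the same hypothalamus pair and are not separate events. The rate of about 1 in 20 groups by chance holds for separate groups only. The sums cover the members measured in all 10 libraries, and 1 library for each diet stands behind the hypothalamus value. The differing marker sums of these libraries are given with the diet results, and their part was not tested.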

How the results depend on the processing

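Over 16 settings, 669 of 791 recomputed values of 65 named results kept their direction and their side of the threshold, 109 kept the direction but were no longer called, and 13 reversed. With members and copies summed, a setting chosen after seeing the data, 0 members were called for diet over all pairs, in prefrontal cortex or in hippocampus, and Ndufs5 moved to 0.0918, 0.0847 and 0.160. With DESeq2, 0 were called in prefrontal cortex and 0 in hippocampus, and with no low-count filter 0 in hippocampus (edgeR adjusted p of Ndufs5 0.0890). With the missing counts of the incomplete library kept as 0, edgeR called 0 members in each diet test and 0 for sex, and 21, 19 and 18 in the region tests of hippocampus against prefrontal cortex, hypothalamus against prefrontal cortex and hypothalamus against hippocampus. In that setting Ndufa5 in hippocampus against prefrontal cortex was -0.46, Uqcrc2 and Atp5l in hypothalamus against hippocampus were both 0.11, and Cox7b between sexes was -0.55. Each of these genes lies behind the break. Its 0 in the female NP hippocampus library is a missing value that enters the hippocampus and female levels as a count.

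With library totals alone, Uqcr10 in hypothalamus against prefrontal cortex was 0.0157, and in hypothalamus against hippocampus Uqcrq was 0.0133, Uqcrc2 0.0626, Atp5b 0.0422, Atp5d 0.0428 and Atp5l 0.0515. Leaving out 1 pair, with fewer libraries, gave 19 to 48 calls between hippocampus and prefrontal cortex, 22 to 32 between hypothalamus and prefrontal cortex, 14 to 36 between hypothalamus and hippocampus, 0 to 1 for diet in hippocampus (0 without its male pair) and 0 to 1 for sex. The 0 for sex came without the male prefrontal cortex, male hippocampus or female prefrontal cortex pair, where 56 members could be tested and Cox7b could not. Leaving out the hypothalamus pair gives no comparison with hypothalamus. Summing copies ended the calls of Atp5h and Cox7a2l in hippocampus against prefrontal cortex (edgeR adjusted p 0.109 and 0.0649), Atp5c1 in hypothalamus against prefrontal cortex (0.0633) and Atp5l in hypothalamus against hippocampus (0.0921). Over all genes the diet test called 212 with edgeR and 111 with DESeq2, 88 without the male hippocampus pair and 72 without the female prefrontal cortex pair. Depth limits the minor isoforms most, with 3 to 83 counts per library in Cox4i2, Cox6a2, Cox6b2, Cox7a1, Cox7b2 and Ndufa4l2.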
